A study of Mus musculus with 3 samples.

Results

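The miR-192 and miR-194 family of mouse liver comes from 2 short genomic clusters, and its 4 precursors, Mir192, Mir194-2, Mir194-1 and Mir215, are described here across 3 liver small RNA libraries. Its members were chosen by locus: every read that began at the 5′ end of an arm of these precursors and matched it was counted, which gave 7 arms of 406 miRNA arms measured and 4 of 1174 annotated precursors. Of the 7 arms, 6 had a read in mock, 5 with the miR-122 decoy and 6 with the let-7 decoy, and 4 had at least 100 reads over the 3 libraries. All libraries were made from livers of C57BL/6 mice, an inbred strain, 4 weeks after they received scAAV9, a vector made from adeno-associated virus with a self-complementary genome. In the mock group the vector encoded no decoy. In the TuD-miR-122 and TuD-let-7 groups it encoded a Tough Decoy (TuD), a hairpin RNA that presents binding sites for miR-122 or for let-7. Which promoter drives the decoys is not stated in the labels. Each group had 1 library from an unstated number of animals, so differences between groups have no replicate check and none was tested. The vectors were made to antagonise miRNAs in the living animal, and the strands described here are no intended target of either decoy.

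miR-192 and miR-194 are abundant in liver, gut and kidney, where hepatocyte nuclear factors of the HNF1 and HNF4 families drive their clusters, and p53 can induce them. A miRNA recognises its target mRNAs mainly through its seed, bases 2 to 8 counted from the 5′ end, so a change of start by a single base changes the seed. The strand that is loaded into Argonaute accumulates, while the opposite strand of the hairpin, here the 3p strand, is mostly degraded. Enzymes can shorten the 3′ end of a mature miRNA (trimming) or add bases that the genome does not encode, mostly A or U (tailing). Target sites with extensive pairing, such as those of many decoys, are known to bring about tailing and trimming of the miRNA that binds them.

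Mature strands are shown 5′ to 3′ as RefSeq gives them (build GRCm38.p6), with the seed in capitals, because the members are told apart by a few bases and group by these seeds.
miR-192-5p: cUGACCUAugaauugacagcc
miR-215-5p: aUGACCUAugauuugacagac
miR-194-5p: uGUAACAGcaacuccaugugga
miR-192-3p: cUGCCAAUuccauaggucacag
miR-194-2-3p: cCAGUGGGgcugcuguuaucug
miR-194-1-3p: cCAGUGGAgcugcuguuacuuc
miR-215-3p: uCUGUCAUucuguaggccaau
miR-192-5p and miR-215-5p share their seed and differ by C1A, A12U and C20A, with the miR-192-5p base first and positions counted from 1 at the 5′ end. miR-194-5p is the same in both Mir194 precursors, so its reads of 22 nt or less cannot be assigned to a locus. The 3p strands of the Mir194 precursors differ by G8A, U19C, C20U and G22C, with the miR-194-2-3p base first, and these reads can be assigned.

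On chromosome 19 (GRCm38, plus strand) Mir194-2 lies at chr19:6264643-6264728 and Mir192 at chr19:6264844-6264932, 115 nt apart. Neither overlaps another gene of the GENCODE annotation, and the nearest genes are Atg2a and Gm14963. On chromosome 1 (plus strand) Mir194-1 lies at chr1:185313319-185313385 and Mir215 at chr1:185313581-185313692, 195 nt apart. Mir194-1 lies in an intron and Mir215 in an exon of the antisense transcript 2010103J01Rik, and both lie within an intron of Iars2, an isoleucyl-tRNA synthetase gene on the opposite strand. The hairpins of the Mir194 precursors follow, with both mature strands in capitals. They are shown because the first base after the 22 nt of the 5p strand, A in Mir194-2 and C in Mir194-1, differs between the loci.
Mir194-2: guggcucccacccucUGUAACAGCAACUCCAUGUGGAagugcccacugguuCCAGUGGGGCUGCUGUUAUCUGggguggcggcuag
Mir194-1: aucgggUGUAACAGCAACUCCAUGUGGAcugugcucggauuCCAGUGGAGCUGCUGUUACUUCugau

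The libraries held 3450317 reads in mock, 3681585 with the miR-122 decoy and 2066892 with the let-7 decoy, and 72.0% to 78.5% of them were miRNA reads. Liver identity was checked on miR-122-5p, the defining hepatocyte miRNA, which made up 37.7% of miRNA reads in mock, 32.6% with the miR-122 decoy and 64.6% with the let-7 decoy. Because both decoy targets are abundant, levels are given in RPM, reads per 1000000, scaled to the miRNA reads left after those of the miR-122 and let-7 loci are set aside (non-target reads), and 3 reads, taken as the floor, are 2.18 RPM in mock, 2.07 with the miR-122 decoy and 6.15 with the let-7 decoy. Where 3 values follow each other they are in the order mock, miR-122 decoy, let-7 decoy. Intervals are 95% intervals of counting error only, exact except for ratios of strand ratios, and PCR copies count as separate reads. In the TuD-miR-122 library the 4 pancreas miRNAs summed to 1613 RPM against 119 in mock, and the 4 skeletal muscle miRNAs to 931 against 9832. In TuD-let-7 these sums were 162 and 213 RPM, and miR-133a-5p, a muscle miRNA, had 0 reads. The part of such other cells in the values below was not tested.

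miR-194-5p and miR-192-5p were among the most abundant miRNAs of every library, and together they made up 99.1% of the reads of the 7 arms in mock, the same with the miR-122 decoy and 99.4% with the let-7 decoy. miR-194-5p had 90235 reads in mock, 82261 with the miR-122 decoy and 43101 with the let-7 decoy, which are 65497, 56638 and 88379 RPM. By main-start reads it was second only to miR-21a-5p among the non-target arms of each library (268692 RPM in mock), and in mock it stood just above miR-101b-3p, at 54535 RPM. miR-192-5p had 60827, 51310 and 22013 reads in the same order, or 44151, 35328 and 45138 RPM, and ranked 4, 6 and 5 among non-target arms. Its neighbours in mock were miR-101b-3p above and miR-29a-3p below, at 42351 RPM, which is 0.959 times its reads (0.948 to 0.970). With all starts within 2 nt counted, miR-101b-3p came before both of them in every library, miR-194-5p ranked 3 in each, and miR-192-5p ranked 4, 5 and 4. The gaps between the named neighbours by main-start reads exceed counting error, but with 1 library per group no spread between samples is known.

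miR-215-5p, which has the seed of miR-192-5p, had few reads, though more than the floor of 3 in each library. It had 22 reads in mock (15.97 RPM, interval 10.01 to 24.2), 29 with the miR-122 decoy (19.97 RPM, 13.4 to 28.7) and 8 with the let-7 decoy (16.4 RPM, 7.08 to 32.3), and the 3 intervals overlap. For each miR-215-5p read there were 2765 miR-192-5p reads in mock (1826 to 4412), 1769 with the miR-122 decoy (1232 to 2642) and 2752 with the let-7 decoy (1396 to 6374). Its neighbours in mock, miR-30c-1-3p with 23 reads and miR-425-3p with 22, could not be told from it by count. Bases 1 and 12, where both miRNAs differ, lie in the 16 nt that had to match, so a miR-192-5p read with a single base-call error was not counted as miR-215-5p.

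**Figure D1:**
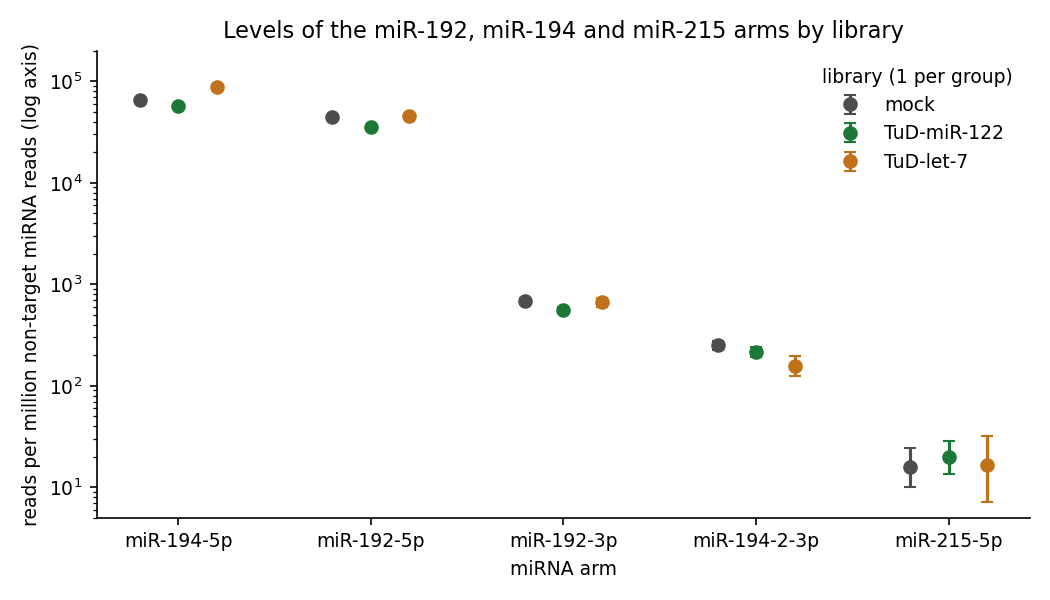
Level of each arm with more than 1 read per library in RPM of non-target miRNA reads (log axis). Points are the single library of each group and bars are exact 95% counting intervals, hidden by the point where narrow. miR-194-5p and miR-192-5p lie between 35328 and 88379 RPM, their 3p strands between 158 and 684, and miR-215-5p at 15.97 to 19.97.

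The 3p strands were present at low levels and in unequal amounts. miR-192-3p had 943 reads in mock, 805 with the miR-122 decoy and 323 with the let-7 decoy (684, 554 and 662 RPM). miR-194-2-3p had 346, 313 and 77 reads (251, 216 and 158 RPM). From the chromosome 1 cluster, miR-194-1-3p had 1 read in mock and 0 in the other libraries, where 3 reads would be 2.07 and 6.15 RPM and the exact upper limits for 0 reads are 2.54 and 7.56 RPM, and miR-215-3p had 1 read, with the let-7 decoy. The 3p strand of Mir194-2 was thus measured in all 3 libraries, and that of Mir194-1 was not above the floor in any.

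The balance between the strands of a hairpin differed between the members. For miR-192 there were 64.5 reads of the 5p strand per 3p read in mock (60.5 to 68.9), 63.7 with the miR-122 decoy (59.5 to 68.4) and 68.2 with the let-7 decoy (61.1 to 76.3), and these intervals overlap. For miR-194 there were 261 miR-194-5p reads per miR-194-2-3p read in mock (235 to 291) and 263 with the miR-122 decoy (235 to 295), but 560 with the let-7 decoy (448 to 709). The last ratio was 2.15 times that of mock (1.68 to 2.75), and it rests on 77 reads of the 3p strand. It was not recounted with mismatches allowed. With 1 internal mismatch allowed, the level of miR-194-5p with the let-7 decoy was 1.22 times mock, against 1.35 as first counted. That of miR-194-2-3p was 0.628 times mock, against 0.629. Among 47 other precursors with at least 1000 reads in mock, at least 10 of them from the minor strand, the median was 83.2 major-strand reads per minor-strand read, and 25 had a larger imbalance than miR-192 and 9 a larger one than miR-194. Among 24 such precursors with the let-7 decoy the median was 87.1, and 13 and 2 had a larger imbalance. The need for 10 minor-strand reads can leave out very unequal hairpins, more so in this smaller library. The other precursors had arms of a single locus, while miR-194-5p pools both Mir194 hairpins. These ranks are therefore loose.

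By reads at the main start, miR-194-5p exceeded miR-192-5p in every library, although part of miR-194-5p can come from chromosome 1. The ratio of miR-194-5p to miR-192-5p reads was 1.48 in mock (1.468 to 1.499), 1.60 with the miR-122 decoy (1.59 to 1.62) and 1.958 with the let-7 decoy (1.93 to 1.99). With all starts within 2 nt counted, which adds mainly miR-192-5p reads, it was 1.08 (1.07 to 1.09), 1.13 (1.12 to 1.14) and 1.46 (1.44 to 1.49). The 3p strands stood in the opposite order, with 2.73 miR-192-3p reads per miR-194-2-3p read in mock (2.41 to 3.09), 2.57 with the miR-122 decoy (2.25 to 2.94) and 4.19 with the let-7 decoy (3.26 to 5.45). Ratios between different miRNAs also carry the ligation and amplification bias of each sequence. They were not recounted with mismatches allowed. With 1 internal mismatch allowed, miR-194-5p with the let-7 decoy was at 1.22 times its mock level, against 1.35 as first counted. miR-192-5p was at 1.03, against 1.02, so the higher ratio of 1.958 depends in part on how mismatched reads are counted.

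With the miR-122 decoy, each of the 4 arms with enough reads was somewhat lower than in mock. The ratio of TuD-miR-122 to mock was 0.800 for miR-192-5p (0.791 to 0.810), 0.810 for miR-192-3p (0.736 to 0.891), 0.865 for miR-194-5p (0.857 to 0.873) and 0.858 for miR-194-2-3p (0.734 to 1.003). For miR-215-5p it was 1.25, with an interval of 0.694 to 2.28. The 3 abundant-strand miRNAs, miR-192-5p, miR-194-5p and miR-215-5p, summed to 109664 RPM in mock and 91986 with the miR-122 decoy, a ratio of 0.839 (0.833 to 0.845). Of 223 other non-target arms, 66 had a lower ratio, and the median ratio of these arms was 0.998. A 2-fold rule, an interval wholly above 2 or below 0.5 for an arm with 100 or more reads in the pair of libraries, was then applied. By that rule 0 of 4 members changed, against 18.5% of all 227 non-target arms tested (13.7% higher and 4.85% lower).

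With the let-7 decoy the 2 abundant strands took different ratios to the same mock library. The ratio of TuD-let-7 to mock was 1.02 for miR-192-5p (1.01 to 1.04) and 1.35 for miR-194-5p (1.33 to 1.36). It was 0.968 for miR-192-3p (0.850 to 1.10) and 0.629 for miR-194-2-3p (0.485 to 0.807). Reads mismatched in the part that had to match were not counted, and substitutions were more frequent in this library, as described below. With 1 internal mismatch allowed, the ratios of miR-192-5p and miR-194-5p were 1.03 and 1.22, which lie closer together. Those of miR-192-3p and miR-194-2-3p were then 0.934 and 0.628. The 3p strand of Mir194-2 was thus below mock and miR-194-5p, which pools both Mir194 hairpins, above it on this scale. For miR-215-5p the ratio was 1.03, with an interval of 0.395 to 2.40. The 3 abundant-strand miRNAs summed to 133534 RPM, 1.22 times mock (1.21 to 1.23), and 129 of 189 other arms had a lower ratio, with a median of 0.983. By the 2-fold rule 0 of 4 members changed, against 7.77% of 193 arms tested (3.63% higher and 4.15% lower).

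The direction with the let-7 decoy depends on the scale. Scaled to all miRNA reads, of which miR-122-5p took 64.6% there, the sum was 0.772 times mock, and scaled to all reads of the library it was 0.720 times mock. On these scales miR-194-5p was at 0.856 and 0.797 times mock and miR-194-2-3p at 0.399 and 0.371, both below it. Scaled to all reads, miR-194-2-3p alone passed the 2-fold rule. For TuD-miR-122 the sum stayed between 0.810 and 0.903 times mock on the other scales tried. Both comparisons share the mock library. Set directly against TuD-miR-122, TuD-let-7 had 1.28 times the miR-192-5p (1.26 to 1.30) and 1.56 times the miR-194-5p (1.54 to 1.58), and 0 of 4 members changed against 20.2% of 213 arms (2.82% higher and 17.4% lower).

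On the scale of non-target reads, most other hepatocyte miRNAs stood on the same side of mock as the sum. Sides of mock were not counted for the lists on the other scales, and the sum with the let-7 decoy was below mock when scaled to all reads or all miRNA reads. Of 8 non-target members of the hepatocyte list, 7 were below mock with the miR-122 decoy and 6 were above mock with the let-7 decoy, with medians of 0.860 and 1.26, and their summed levels were 135312 RPM in mock, 126373 with the miR-122 decoy and 175807 with the let-7 decoy. The erythroid list (red cell miRNAs) was above mock in 4 of 4 members with the miR-122 decoy and below it in 4 of 4 with the let-7 decoy, with summed levels of 34629 RPM in mock, 48684 and 30990. The immune list was above mock in 4 of 7 members with the miR-122 decoy and in 0 of 7 with the let-7 decoy, where its median was 0.710. The kidney and gut list, with 4 measured members, had medians of 0.995 and 0.839. In whole liver, fewer cells of a type and less of its RNA per cell cannot be told apart. Leaving the muscle, pancreas and erythroid lists and the members themselves out of the scale gave ratios of the sum of 0.828 and 1.23.

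The other miRNAs linked to hepatocyte nuclear factors did not share one ratio. Of 7 measured non-target members, 6 were below and 1 above mock with the miR-122 decoy (median 0.818), and 4 were below and 3 above with the let-7 decoy (median 0.908). miR-101b-3p was at 0.941 and 1.22 times mock in the 2 decoy libraries, and miR-101a-3p at 0.867 and 1.31. miR-29b-3p was at 0.715 and 0.908, and miR-148a-3p, a miRNA of differentiated hepatocytes, at 0.818 and 0.864. Here miR-101a-3p, miR-101b-3p, miR-148a-3p and miR-802-5p are also on the hepatocyte list. The single member past the 2-fold rule with the miR-122 decoy was miR-802-3p (0.227, interval 0.162 to 0.314), and with the let-7 decoy miR-802-5p (0.178, 0.143 to 0.218), and both are named here after their values were seen. Links of this list to the factors are loose in the literature. These are 1 of 7 members in each comparison, beside 18.5% and 7.77% of all arms tested.

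The p53-linked list had a median near mock with the miR-122 decoy. Of 9 measured members 4 were above and 5 below mock with the miR-122 decoy (median 0.998), and 5 were above and 4 below with the let-7 decoy (median 1.12). miR-34a-5p, the best known p53 target among miRNAs, was at 0.851 and 0.952 times mock. miR-16-5p, a repressor of cell cycle genes, was at 1.05 and 0.502, miR-143-3p at 1.24 and 1.26, and miR-15a-5p at 0.998 and 0.868. The single member past the 2-fold rule was miR-200c-3p, an epithelial miRNA, with the miR-122 decoy (2.37, 2.01 to 2.80). It was named after its value was seen, and 1 of 9 stands beside 18.5% of all arms. Measured members needed 20 reads, while the 18.5% covers arms with at least 100 in the pair of libraries. miR-34b-5p, with 21 reads in mock and 15 with the miR-122 decoy, fell short of 100. Of the 8 members of the biliary and other epithelium list, which holds miR-200c-3p too, 5 were above mock with the miR-122 decoy (median 1.90). By the 2-fold rule 2 were higher, miR-200c-3p and miR-141-3p (2.32), and 2 lower, miR-205-5p (0.324) and miR-31-5p (0.468), all named after their values were seen, with summed levels of 7101 RPM against 6464.

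Among the 47 other non-target arms with at least 1000 reads in every library, those with the nearest profile over the 3 libraries were miR-30c-5p, miR-130a-3p and miR-93-5p for miR-192-5p, with distances of 0.07, 0.10 and 0.13. For miR-194-5p they were miR-101a-3p, miR-378a-3p and miR-30a-5p, at 0.04, 0.06 and 0.06. For miR-215-5p they were miR-126a-3p, miR-29a-3p and miR-30b-5p, at 0.05, 0.11 and 0.13, a choice that its 8 to 29 reads leave imprecise. The distance is Euclidean, between log2 RPM values centred over 3 libraries. A profile over so few libraries is fixed only loosely.

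A large share of miR-192-5p reads began 1 nt after the main start. These reads numbered 22863 of 84087 in mock (27.2%), 22009 of 73741 with the miR-122 decoy (29.8%) and 7573 of 29713 with the let-7 decoy (25.5%), counted among starts within 2 nt of the main one. All starts other than the main one made up 27.7%, 30.4% and 25.9% of miR-192-5p reads, where the 47 other arms had medians of 1.53%, 1.85% and 1.80%. Only 2 of those arms were higher in mock, 2 with the miR-122 decoy and 3 with the let-7 decoy. miR-194-5p was nearly uniform, with 1.05%, 1.25% and 0.967% of reads at other starts.

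The later start moves the seed by 1 base, and its reads also ended elsewhere. The most frequent insert of each start is shown as sequenced, with T for U and bases 2 to 8 of that insert in capitals.
main start: cTGACCTAtgaattgacagcc
start 1 nt later: tGACCTATgaattgacagccagt
The second form made up 39.3% of later-start reads in mock, 44.9% with the miR-122 decoy and 38.2% with the let-7 decoy. Counted from the main start, 40.3%, 46.8% and 39.3% of later-start reads last matched at nt 24, against 1.86%, 1.98% and 1.43% of main-start reads. Main-start reads ended mostly at nt 20 to 22, with 32.3% at nt 21 and 37.4% at nt 22 in mock. The later-start reads were also tailed less often, in 27.4%, 24.9% and 30.9% of reads against 37.6%, 36.9% and 41.6% for the main start. Tails of only T were on 10.5%, 12.1% and 9.63% of later-start reads and on 27.01%, 28.0% and 22.3% of main-start reads. These differences between the starts had the same direction in all 3 libraries. The precursor has G at nt 23, which is read position 23 from the main start and 22 from the later start. A G misread as T there would look like an end at nt 22 with a tail. How many reads this concerns was not tested for either start.

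**Figure D2:**
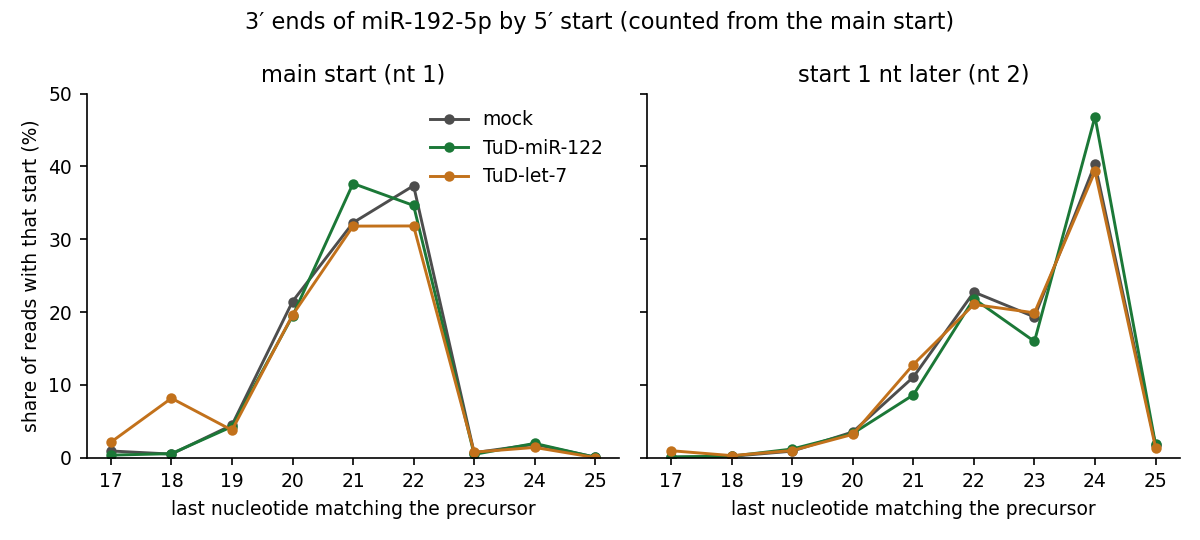
Share of miR-192-5p reads by the last nucleotide that matches the precursor, counted from the main start, for main-start reads (left) and reads that start 1 nt later (right). Each line is the single library of a group. Main-start reads peak at nt 21 and 22, later-start reads at nt 24 with 39.3% to 46.8%.

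Both abundant strands ended at several positions, 1 to 2 nt apart. The matching part of miR-192-5p was 20 nt in 21.5% of reads in mock, 19.5% with the miR-122 decoy and 19.6% with the let-7 decoy, and under 21 nt, called trimmed, in 27.7%, 25.2% and 34.1%. The limit of 21 nt is the full length of miR-192-5p, and it was the same for strands of other lengths, miR-194-5p included. The median of the 47 other arms was 6.48%, 6.63% and 15.6%, and 6, 7 and 4 of them were above miR-192-5p. With the limit at 20 nt the share of miR-192-5p was 6.27%, 5.74% and 14.5%, against medians of 1.99%, 2.10% and 6.39%, and 4, 7 and 4 arms were above it. miR-194-5p matched for 23 nt in 57.9%, 55.8% and 51.2% of reads and for 22 nt in 29.3%, 32.9% and 28.4%, and for 21 nt in 10.3%, 8.88% and 8.01%. It was trimmed in 2.37% of reads in mock (2.27 to 2.47), 1.94% with the miR-122 decoy (1.85 to 2.04) and 12.2% with the let-7 decoy (11.9 to 12.5). The higher share with the let-7 decoy lay in reads with a matching part of 20 nt, 11.1% of reads there against 1.34% in mock, and 97.3% of them carried a tail. Below 20 nt its share was 1.03%, 0.759% and 1.06%.

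**Figure D3:**
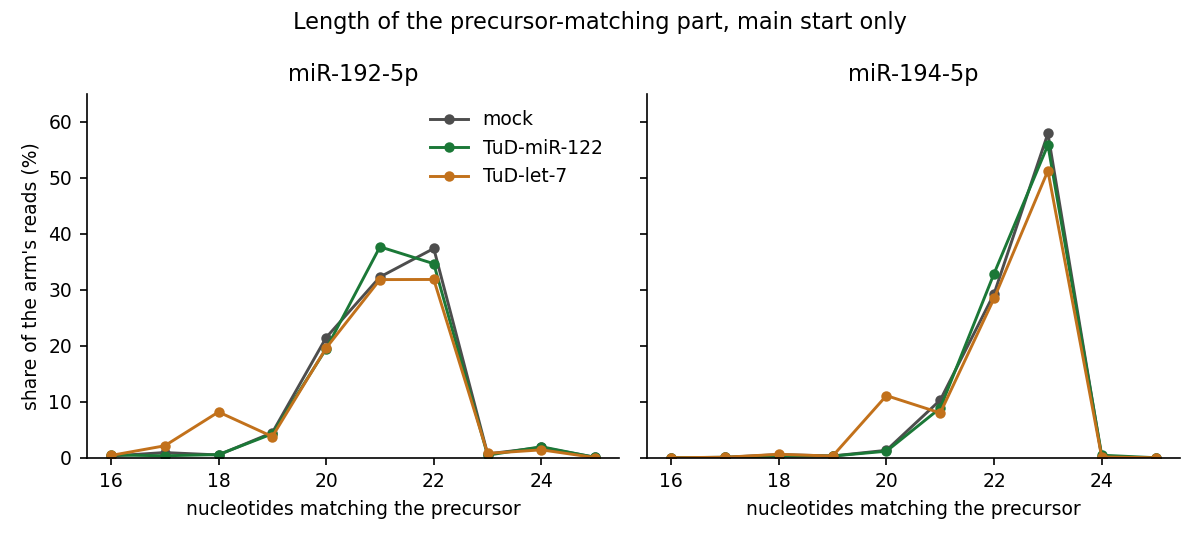
Share of reads of miR-192-5p (left) and miR-194-5p (right) by the number of nucleotides that match the precursor, main start only. Each line is the single library of a group. miR-192-5p spreads over 20 to 22 nt and miR-194-5p over 21 to 23 nt, and TuD-let-7 has an extra rise at 18 nt for miR-192-5p (8.18%) and at 20 nt for miR-194-5p (11.1%).

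miR-192-5p carried U tails, and tails sat mainly on reads matching for 22 nt. Tails were on 37.6% of its reads in mock (37.2 to 38.0), 36.9% with the miR-122 decoy (36.5 to 37.4) and 41.6% with the let-7 decoy (41.0 to 42.3), and the other arms had medians of 28.0%, 25.3% and 31.9%. Tails of only T made up 27.01%, 28.0% and 22.3% of reads, where the other arms had medians of 7.10%, 7.08% and 6.196% and 6, 6 and 9 of 47 arms were higher. Tails of only A were on 3.84%, 2.77% and 4.05%. Of reads matching for 22 nt, 68.8% were tailed in mock, 69.0% with the miR-122 decoy and 65.9% with the let-7 decoy, against 21.3%, 20.1% and 18.0% of those matching for 21 nt. The forms below show the most frequent insert and those with U tails, with the tail in capitals.
miR-192-5p, 21 nt: ctgacctatgaattgacagcc
miR-192-5p, tail of 1 T: ctgacctatgaattgacagccaT
miR-192-5p, tail of 2 T: ctgacctatgaattgacagccaTT
The first made up 25.4% of miR-192-5p reads in mock, 30.1% with the miR-122 decoy and 26.1% with the let-7 decoy. The form with 1 added T made up 9.57%, 8.38% and 7.27%, and that with 2 added T 9.65%, 10.1% and 8.20%. The precursor has A at nt 22, just past the 21 nt of RefSeq, so an A added to a 21-nt strand matches it. Such reads count as matching for 22 nt, and T behind that A as a tail of only T. The shares by matching length and by tail base depend on this rule. How many reads it concerns was not tested. The precursor continues with G and T after nt 22. In some reads the last T of the longer tail could therefore be a genomic base behind a misread G. The insert with both precursor bases was 1.66% of miR-192-5p reads in mock and 1.66% with the miR-122 decoy. How many reads a misread G concerns was not tested.

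As counted, miR-194-5p was tailed less than miR-192-5p and with both bases. Tails were on 21.1% of its reads in mock, 22.2% with the miR-122 decoy and 28.4% with the let-7 decoy. Tails of only T made up 10.3%, 12.6% and 9.60% and tails of only A 7.27%, 6.40% and 6.34%. Tails that mix A and T were on 1.54%, 1.56% and 9.73%, so the excess with the let-7 decoy was of this mixed kind.

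As counted, the 3p strands were the most tailed members, mainly with U. miR-194-2-3p was tailed in 59.2% of reads in mock (53.9 to 64.5), 59.7% with the miR-122 decoy (54.1 to 65.2) and 72.7% with the let-7 decoy (61.4 to 82.3), and tails of only T made up 45.7%, 48.9% and 53.2%. Its most frequent insert in each library, ccagtggggctgctgttatctgT, is the 22-nt strand with 1 added T, at 39.0%, 40.6% and 48.1% of its reads. miR-192-3p was tailed in 49.9%, 47.2% and 51.7% of reads, with tails of only T on 29.9%, 32.5% and 27.9% and of only A on 14.3%, 8.45% and 14.9%. For miR-215-5p the 22, 29 and 8 reads held 5, 3 and 2 tailed reads, too few to compare, and 10, 14 and 5 of them were the plain 21-nt insert atgacctatgatttgacagac.

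**Figure D4:**
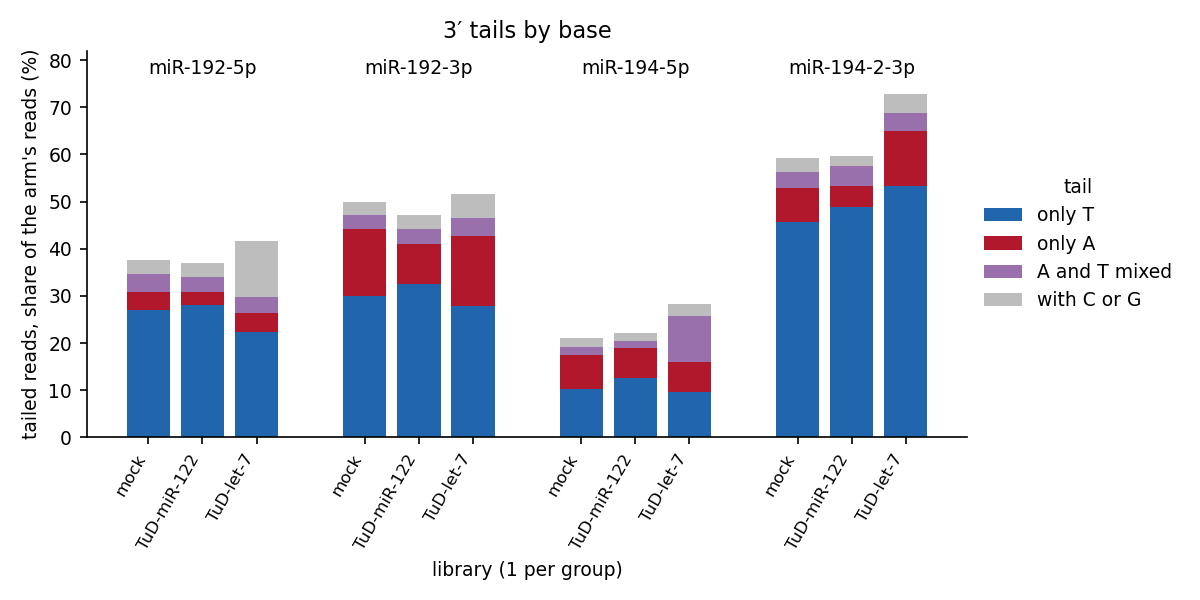
Share of each arm's reads with a 3′ tail, by the bases of the tail (only T, only A, A and T mixed, or with C or G), for the single library of each group. Added bases that match the precursor are not counted as tails. Tails of only T are the largest class in all 4 arms but for miR-194-5p with the let-7 decoy, and the extra tails of TuD-let-7 lie in classes with C or G for miR-192-5p (11.8%) and A and T mixed for miR-194-5p (9.73%).

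The excess of tails and short matches with the let-7 decoy fell together with substitutions at fixed read positions. Shares are those of reads with the named mismatch and no other in their first 21 nt, among these and exact reads. G10T was seen in 11.5% of miR-192-5p reads with the let-7 decoy, against 0.778% in mock and 0.213% with the miR-122 decoy, with the reference base first and positions counted from 1 at the read's 5′ end. G19T was in 9.41% of them, against 0.295% and 0.314%. In miR-194-5p, G21T was in 10.3% against 0.331% and 0.315%. With 2 A after it, G21T gives the insert tgtaacagcaactccatgtgTAA, read as a match of 20 nt with a 3-nt tail, and this insert was 4.15% of miR-194-5p reads with the let-7 decoy.

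Other miRNAs had the same substitutions at the same read positions in that library. Of the other arms with a G at position 10, 15 in number, the median share read as T was 7.40% with the let-7 decoy (4.56% to 11.01%), 0.796% in mock and 0.170% with the miR-122 decoy. At position 19 the median over 19 arms was 11.8% against 0.247% and 0.155%, and at position 21 over 12 arms 3.19% against 0.212% and 0.348%. Other positions with a raised median with the let-7 decoy included 4 (6.04%, 7 arms), 11 (11.7%, 5 arms), 12 (4.92%, 8 arms) and 13 (3.63%, 9 arms). Positions 9 and 18 had medians of 0.0637% and 0.138%. In miR-192-5p reads that start 1 nt later, where the same genomic bases fall at read positions 9 and 18, G10T was at 0.0675% and G19T at 0.377% with the let-7 decoy, compared up to nt 20. A substitution above 5% at some position was seen in 44 of 47 other arms with the let-7 decoy, in 15 in mock and in 16 with the miR-122 decoy. Reads mismatched in the part that had to match were not counted in the levels as first given. miR-192-5p has a G at position 10, and miR-194-5p has none at positions 4, 10, 11, 12 or 13. miR-194-2-3p has a G at positions 4 and 12. With 1 internal mismatch allowed in counting, the ratio of TuD-let-7 to mock was 1.03 for miR-192-5p and 1.22 for miR-194-5p. As first counted these ratios were 1.02 and 1.35. For miR-194-2-3p the ratio was 0.628 with 1 internal mismatch allowed and 0.629 as first counted.

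**Figure D5:**
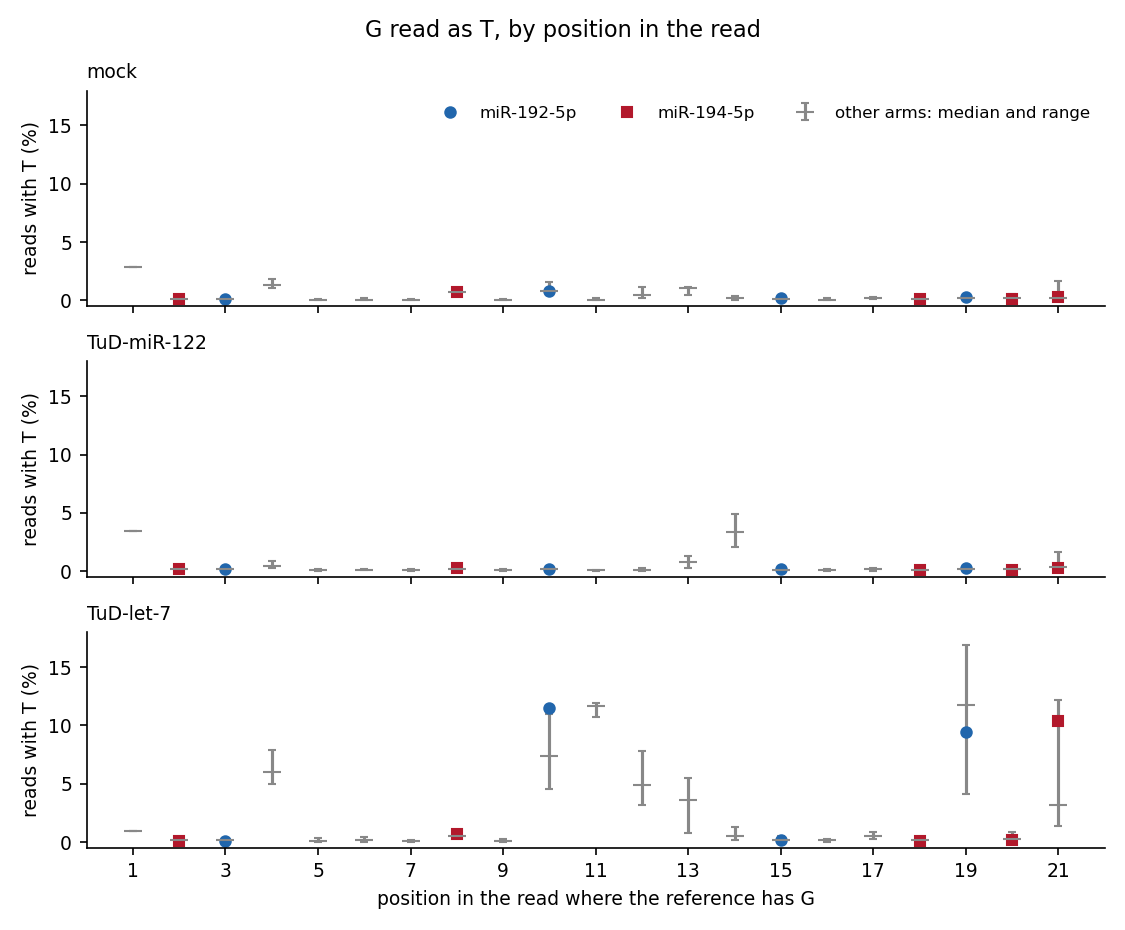
Share of reads with T where the reference has G, by position in the read, for each library. Grey bars give the median and range over other arms with a G there, and points give miR-192-5p and miR-194-5p. In TuD-let-7 the members' points at positions 10, 19 and 21 (11.5%, 9.41% and 10.3%) lie near or within the range of the other arms, and in the other libraries they are below 1%.

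When a single mismatch followed by at least 2 matching bases was read through, an alternative chosen after seeing the data, most of the excess was no longer there for miR-192-5p and part of it for miR-194-5p. The tailed share of miR-192-5p was then 35.9% in mock, 35.6% with the miR-122 decoy and 35.2% with the let-7 decoy, and its trimmed share 26.6%, 24.2% and 27.1%. For miR-194-5p the tailed share was 20.2%, 21.5% and 23.1% and the trimmed share 1.34%, 1.17% and 5.43%. Read through, the tailed share with the let-7 decoy differed from mock by -0.679 percentage points for miR-192-5p and by 2.91 for miR-194-5p, and the trimmed share by 0.458 and 4.09. Pooled over the 3 abundant-strand miRNAs, the tailed share was 5.10 points above mock as first counted and 0.677 when read through, and the trimmed share 7.01 and 1.22. These pooled values also move with the mix of miRNAs, which held more miR-194-5p with the let-7 decoy. With each miRNA weighted as in mock, another alternative chosen after seeing the data, the tailed excess was 5.95 and, read through, 1.46 points, and the trimmed excess 8.43 and 2.62. The miR-122 decoy gave pooled differences of 0.0995 points in tailed and -1.71 points in trimmed share as first counted. Of reads that match for 20 nt in miR-194-5p with the let-7 decoy, those in which a single base or a second error follows the mismatch are not read through. The insert tgtaacagcaactccatgtgTA, with a single A after the mismatch, was 3.01% of miR-194-5p reads there. Tails of TA were on 3.25% of its reads with the let-7 decoy and on 0.327% in mock.

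Most reads longer than 22 nt had the base of Mir194-2 next. Reads with the Mir194-2 base, A, at nt 23 were 52016 in mock, 44197 with the miR-122 decoy and 21828 with the let-7 decoy, or 57.6%, 53.7% and 50.6% of miR-194-5p. An A added to a 22-nt strand from either locus looks the same. Reads with the Mir194-1 base, C, here called C-type reads, were 355, 2115 and 318, or 0.393% (0.354 to 0.436), 2.57% (2.46 to 2.68) and 0.738% (0.659 to 0.823). G, which is the base of neither locus, stood there in 544, 372 and 303 reads, more often than C in mock, less often with the miR-122 decoy and about as often with the let-7 decoy. T, also of neither, stood there in 2154, 2583 and 938 reads. A C at nt 23 alone therefore does not place a read at Mir194-1. The 3 most frequent forms of C-type reads are shown with the bases past nt 22 in capitals, since only the last has 2 such bases as in Mir194-1.
C alone: tgtaacagcaactccatgtggaC
C and A: tgtaacagcaactccatgtggaCA
C and T: tgtaacagcaactccatgtggaCT
The first had 242 reads in mock, 1439 with the miR-122 decoy and 236 with the let-7 decoy, the second 63, 296 and 41, and the third 37, 245 and 28. The form with C and A thus had more reads than that with C and T in every library. Either can be a strand ending in C with an added base. In mock the Mir194-2 form with A at nt 23 also carried an added A in 5554 reads and an added T in 6246. These counts therefore cannot tell a Mir194-1 end from an added C.

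Relative to non-target miRNA reads, C-type reads with the miR-122 decoy were 5.65 times those of mock (5.05 to 6.34), and with the let-7 decoy 2.53 times (2.17 to 2.95). Reads with A at nt 23 were at 0.806 (0.796 to 0.816) and 1.19 (1.17 to 1.20). Reads with at least 2 bases as in Mir194-1 were 40, 300 and 32, or 7.11 times (5.10 to 10.2) and 2.26 times mock (1.37 to 3.69). The other readouts of the chromosome 1 cluster were few: miR-194-1-3p had 1, 0 and 0 reads, miR-215-5p had 22, 29 and 8, with ratios to mock of 1.25 (0.694 to 2.28) and 1.03 (0.395 to 2.40), and reads that start 1 nt early with the Mir194-1 base were 0 in all 3 libraries, against 93, 58 and 42 with the Mir194-2 base. The share of C at nt 23 also differed between libraries in other miRNAs. Over 7 other arms whose precursor has A at nt 23, C made up a median of 0.456% of reads past nt 22 in mock, 1.25% with the miR-122 decoy (0.251% to 4.35%) and 1.16% with the let-7 decoy, and for miR-194-5p it made up 0.645%, 4.29% and 1.36%. The library with the most C-type reads was also that with the most pancreas miRNAs (14.5 times mock, median of 4). With the let-7 decoy, where C-type reads were 2.53 times mock, the median of the 3 pancreas miRNAs measured was 1.09. A link between them was not tested.

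Reads from elsewhere on the hairpins were rare. At starts more than 2 nt from an arm's start there were 50, 59 and 17 reads on Mir192, 154, 189 and 68 on Mir194-2, and 0 on Mir215, in the order mock, miR-122 decoy, let-7 decoy. These made up at most 0.225% of the reads of any of these hairpins in any library. The values of Mir194-2 and Mir194-1 are not independent, since both hairpins hold the miR-194-5p reads.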

How the data were processed

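The authors deposited, for each of the 3 libraries, a table of distinct insert sequences with raw read counts. Per the labels' protocols, RNA was extracted with mirVana and RNAs of 18 to 30 nt were gel-purified (adapter removal, filters, aligner and build not given in the sources used here). Deposited inserts spanned 15 to 30 nt. The members and lists were chosen with earlier results of these data known. Precursors were the 1174 GENCODE M21 (GRCm38) miRNA transcripts with a Mir symbol. An arm's 5′ end was the most frequent start of untailed reads over all libraries, for arms with at least 10 reads (member arms with fewer were kept), and arms sharing their first 22 nt were merged. A read had to start there and match for at least 16 nt; up to 5 further nt were a tail, base-call errors included, and under 21 matching nt was called trimmed. Reads fitting several arms equally (0.327% to 0.347% of miRNA reads) were not used for single arms. Levels are RPM of 1377696, 1452394 and 487682 non-target miRNA reads (mock, TuD-miR-122, then TuD-let-7). Ratios carry exact conditional-binomial and shares exact Clopper-Pearson intervals (95%); ratios of strand ratios carry normal intervals on the log scale. List medians use members with at least 20 reads and 0.5 added reads. Named beside the members were up to 4 abundant members per pathway list, neighbours in mock order and the 3 nearest profiles. Listed miRNAs without an entry (3 of the kidney and gut list, 2 of the p53 list) were not analysed here. The code was tested on simulated data. Python 3.11, SciPy 1.17.1, matplotlib 3.10.9.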

Additional observations from a re-analysis of the deposited data

How the results depend on the processing

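With 1 library per group no test was made, so these values bear on counting and scaling only. The summed ratio of TuD-let-7 to mock, 1.22, turned to 0.720 scaled to all reads and 0.772 scaled to all miRNA reads. It was 1.17 with median-of-ratios size factors, 1.23 without the muscle, pancreas and erythroid lists and the members in the scale, 1.17 with starts within 2 nt, 1.14 with 1 internal mismatch and 1.20 with tails of up to 2 nt. For TuD-miR-122, 0.839 became 0.829, 0.903, 0.810, 0.828 and 0.847 under the first 5 of these in that order. Members past the 2-fold rule were 1 in TuD-let-7 scaled to all reads and 0 under the 10 other settings, and 0 under all 11 in TuD-miR-122.

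The tailed share of TuD-let-7 minus mock, 5.10 points, was 6.00 with 1 internal mismatch, 1.05 with tails of up to 2 nt, 5.57 without single-A tails, 0.677 with mismatches read through, and turned to -0.322 with only A tails counted. That of TuD-miR-122, 0.0995, was -0.303 with starts within 2 nt, -0.881 with only A tails and 0.703 without single-A tails. The trimmed share of TuD-let-7, 7.01 points above mock, was 6.42 with starts within 2 nt, 7.61 with 1 mismatch, 1.49 with tails of up to 2 nt, 2.48 with trimming set below 20 nt and 1.22 read through. That of TuD-miR-122, -1.71, was -0.470 below 20 nt. With each miRNA weighted as in mock, the TuD-let-7 differences were 5.95 tailed and 8.43 trimmed, or 1.46 and 2.62 read through. Those of TuD-miR-122 were -1.28 trimmed, or 0.648 tailed and -1.09 trimmed read through. Reading through and weighting were chosen after seeing the data.

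Of 198 values for single arms, 147 stayed within the counting interval, 42 moved and 9 turned. Some of the 147 could not move. The tailed share does not depend on the trimming limit, nor the trimmed share on whether only A tails count. Values of miR-215-5p are also among the 198, and their intervals are wide (0.395 to 2.40 for its TuD-let-7 level). The miR-192-5p ratio in TuD-let-7, 1.02, was 0.604 (all reads), 0.648 (all miRNA reads), 0.986 (size factors) and 0.986 (starts within 2 nt), and that of miR-194-5p was 0.797 and 0.856 on the first 2 scales. The miR-192-5p tailed share in TuD-let-7 turned to -0.679 points read through, and with only A tails that of miR-194-5p was -0.929 in TuD-let-7 and -0.866 in TuD-miR-122. No paired analysis was possible because each group has 1 library. At 22, 29 and 8 reads, depth limits what can be said of miR-215-5p.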
